A study of Mus musculus with 9 samples.

Results

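The proteasome genes of primary mouse B cells are described here, before and after activation and in libraries labelled with or without the floxed *Mct1* alleles. They were taken by symbol, as every row of the deposited expression table that starts with Psm, a letter from a to g and a digit, which gave 51 of 17596 genes. Of these 51 genes, 48 encode proteasome subunits or the chaperones, activators and inhibitor that act on them. The other three matched the symbol only. *Psmc3ip* and *Psme3ip1* are named after a proteasome gene but encode no subunit, and *Psme2b* is an intronless copy of *Psme2*.

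The proteasome is the protease that degrades ubiquitin-tagged proteins in the cytosol and nucleus. Its core particle, the 20S proteasome, is a barrel of alpha rings, which gate the entry, around beta rings, which carry the catalytic sites. The 19S regulatory particle sits on its end, where non-ATPase subunits bind and strip ubiquitin and a ring of ATPases unfolds the substrate. In lymphocytes and in cells exposed to interferon, the constitutive catalytic subunits PSMB5, PSMB6 and PSMB7 can be replaced during assembly by the inducible PSMB8, PSMB9 and PSMB10, which gives the immunoproteasome known for making peptides for MHC class I.

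RNA sequencing was performed on 9 libraries of splenic B cells. Control mice carried *Mb1Cre*, in which B lineage cells express Cre recombinase, and *Mct1f/fMb1Cre* mice carried the same Cre with a floxed *Mct1*, the gene of a lactate and pyruvate transporter that the table lists as *Slc16a1*. Both genotypes therefore share the Cre allele, and deletion is limited to cells of the B lineage. On day 0 there were 2 *Mb1Cre* and 2 *Mct1f/fMb1Cre* libraries of untreated cells, and 2 and 3 libraries of cells cultured for 3 days with 10 μg/ml of LPS plus 50 ng/ml of IL-4, which drives proliferation and class switching. Cells cultured without the stimuli were not analysed here, so the effects of culture and of the stimuli cannot be told apart. The labels do not say which libraries came from separate animals, and p values measure only the spread between these libraries.

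Values are FPKM, fragments per kilobase of transcript scaled to the mapped fragments of a library, so levels of different genes can be compared per length. Their sums over all genes were 477079 and 488428 in *Mb1Cre* and 482112 and 491459 in *Mct1f/fMb1Cre* on day 0, against 563586 and 547778 in *Mb1Cre* and 547355, 557679 and 547725 in *Mct1f/fMb1Cre* on day 3. Read counts were not analysed here and the depth of the libraries is unknown. An FPKM is a share of a library, and fewer cells of a type and less RNA per cell cannot be told apart. Fold changes were fitted with limma on log2(FPKM + 1), which understates the change of lowly expressed genes, over the 10823 genes whose mean reached 1 FPKM. Calling a gene required a Benjamini-Hochberg adjusted p under 0.05 together with a change of more than 0.5 on the log2 scale.

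The targeted gene *Slc16a1* had 22.58 and 22.95 FPKM in *Mb1Cre* and 10.82, 9.81 and 9.50 FPKM in *Mct1f/fMb1Cre* cells on day 3. The groups did not overlap, and its log2 fold change was -1.11 (limma, adjusted p = 9.1e-06). On day 0 it had 4.33 and 3.80 FPKM in *Mb1Cre* and 3.71 and 4.06 FPKM in *Mct1f/fMb1Cre* cells, which overlapped, so the day 0 genotype rests on the labels alone.

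The B cell markers *Cd79a*, *Cd79b*, *Ms4a1*, *Pax5* and *Cd22* were present in every library. *Cd79a*, the most abundant of them on day 0, had between 1573 and 1714 FPKM on day 0 and between 502 and 575 FPKM on day 3. The summed markers of myeloid, T and NK, dendritic and erythroid cells were far higher on day 0. The 6 myeloid markers summed to 997 and 1185 FPKM in *Mb1Cre* and to 1766 and 1071 FPKM in *Mct1f/fMb1Cre* on day 0, and to between 14.9 and 25.4 FPKM on day 3. *Lyz2* was the most abundant of them in all 9 libraries, and *S100a9* was listed at 0 in 1 of the 5 day 3 libraries. The 6 T and NK cell markers summed to between 47.1 and 57.1 FPKM on day 0 and to between 5.81 and 7.67 FPKM on day 3, with *Nkg7* the most abundant. The dendritic markers *Siglech* and *Itgax* together summed to between 46.5 and 54.3 FPKM on day 0 and to at most 0.53 FPKM on day 3. The 4 erythroid markers, led by *Hba-a1* on day 0 and *Hbb-bt* on day 3, summed to between 95.01 and 172 FPKM and then to between 4.34 and 7.92 FPKM, with *Hbb-bs* at 0 in every day 3 library. *Hbb-bt* was not called in *Mb1Cre*, where the day 0 libraries had 8.27 and 11.66 FPKM and those of day 3 had 7.69 and 6.16 FPKM. The 3 plasma cell markers, with *Jchain* the most abundant, summed to 72.7 and 86.0 FPKM in *Mb1Cre* and to 168 and 126 FPKM in *Mct1f/fMb1Cre* on day 0, and to 137 and 127 FPKM and 111, 98.2 and 91.1 FPKM on day 3. The direction of this sum, higher on day 3 in *Mb1Cre* and lower in *Mct1f/fMb1Cre*, was that of *Jchain* alone, since *Sdc1* was called lower (-1.27 and -0.90) and *Prdm1* higher (1.65 and 1.85) in both genotypes. The part of all these markers in the comparisons of day 3 with day 0 below was not tested.

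One library stood apart by its Y-linked genes. *Eif2s3y* had 59.61 FPKM in the first *Mct1f/fMb1Cre* library of day 0 and between 0.11 and 0.58 FPKM in the other day 0 libraries, against 44.56 to 62.28 FPKM in the 5 libraries of day 3. In *Mb1Cre*, activation and the sex of the animals therefore cannot be told apart. In *Mct1f/fMb1Cre*, the comparison could be repeated with this day 0 library alone, so that every library in it expressed the Y-linked genes, and the values are given below. This library also had the highest summed myeloid, erythroid and plasma cell markers of day 0 (1766, 172 and 168 FPKM). Its sums of T and NK and of dendritic markers were not the highest.

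Most transcripts of the proteasome rose with activation. Of the 46 tested genes of subunits and factors that act on them, 40 were called higher in *Mb1Cre* and 39 in *Mct1f/fMb1Cre*, and 0 lower in either. The further counts are over all members by symbol. In *Mb1Cre* B cells, 41 of the 49 members that passed the filter on low values were called higher on day 3, 1 was called lower and 7 were not called. Among all tested genes 24.8% were called higher and 33% lower. The median log2 fold change was 0.98 over the members and -0.12 over all tested genes. In *Mct1f/fMb1Cre* B cells, 40 members were called higher, 1 lower and 8 not, where 23.4% of all genes were called higher and 33.2% lower, with medians of 1.02 and -0.14. These medians of all genes depend on the scaling of the libraries. In *Mb1Cre* they were -0.31 after scaling to a common total and 0.07 after median-of-ratios scaling, where 3433 genes were called higher and 2731 lower in place of 2687 and 3571. The members' median was 0.78 and 1.19 under these scalings. With no limit on the fold change, 45 members were higher and 2 lower in *Mb1Cre*, where 37% and 47.5% of all genes were, and 46 and 2 in *Mct1f/fMb1Cre*, where 36.4% and 49.1% were. The days did not overlap in 47 of the 49 members in *Mb1Cre* and in 48 in *Mct1f/fMb1Cre*, against 91.9% and 89.8% of all genes. With the Y-expressing day 0 library alone, 41 members were called higher and 1 lower in *Mct1f/fMb1Cre*, with a median of 1.05. The lone day 0 library is assumed there to vary like the libraries of the other groups.

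Together the 51 genes took 0.594% and 0.588% of the summed FPKM in *Mb1Cre* and 0.576% and 0.598% in *Mct1f/fMb1Cre* on day 0. On day 3 they took 1.09% and 1.07% in *Mb1Cre* and 1.07%, 1.08% and 1.08% in *Mct1f/fMb1Cre*. Every day 3 library lay above every day 0 library, and within a day the genotypes overlapped.

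**Figure D1:**
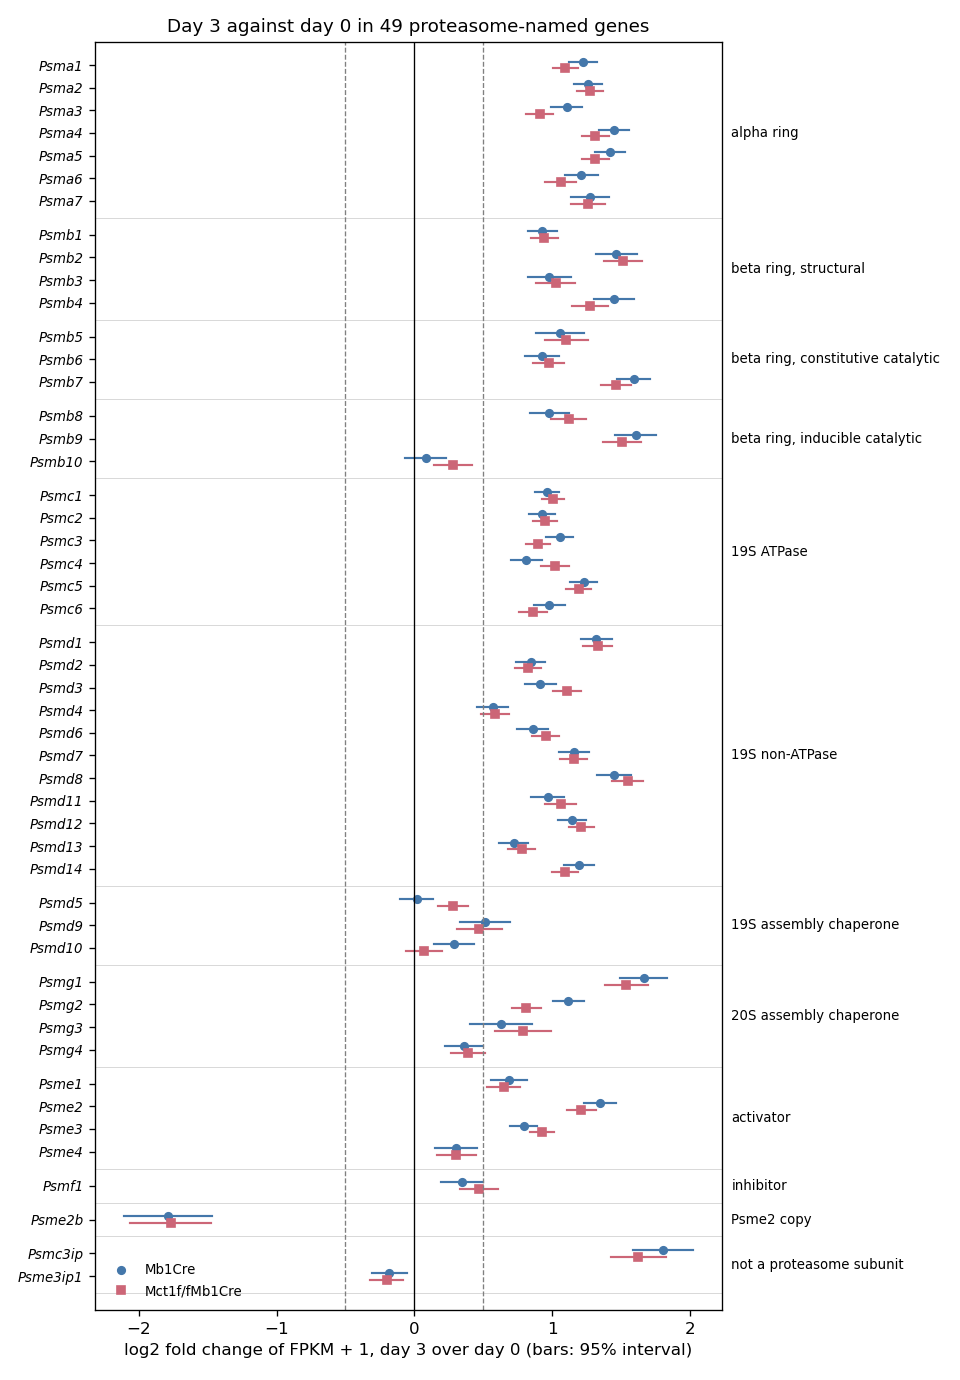
Log2 fold change of FPKM + 1, day 3 over day 0, for the 49 tested members grouped by role (points: limma estimates in Mb1Cre, blue, and Mct1f/fMb1Cre, red; bars: 95% intervals; dashed lines: the limit of 0.5 in size). The estimates of all 14 standard 20S subunits and all 17 subunits of the 19S particle lie right of the limit in both genotypes. Of these, Psmd4 alone has intervals that cross it, with lower bounds of 0.46 in Mb1Cre and 0.49 in Mct1f/fMb1Cre. Psme2b alone lies beyond the limit on the left.

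In the plot of fold changes by role the core particle comes first. All 7 alpha ring genes were called higher in both genotypes, with a median log2 fold change of 1.26 in each. *Psma4*, *Psma5* and *Psma7* rose most in *Mb1Cre*, by 1.45, 1.42 and 1.28, and the smallest of the 7 changes was 1.11 for *Psma3* (limma, adjusted p = 2.6e-09). *Psma4* had 74.19 and 78.23 FPKM in *Mb1Cre* on day 0 and 211.74 and 208.04 FPKM on day 3, and in *Mct1f/fMb1Cre* 80.03 and 83.80 FPKM and then 209.86, 209.55 and 196.76 FPKM. The days did not overlap in either genotype. The 4 structural beta subunits, which have no catalytic site, were also called higher in both genotypes. *Psmb2* rose most among them, by 1.47 in *Mb1Cre* and 1.52 in *Mct1f/fMb1Cre*, and *Psmb1* least, by 0.93 and 0.94.

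In the 19S particle, all 6 ATPase genes and all 11 non-ATPase genes were called higher in both genotypes. The ATPases had a median log2 fold change of 0.97 in *Mb1Cre* and 0.98 in *Mct1f/fMb1Cre*. *Psmc5*, *Psmc3* and *Psmc6* rose most in *Mb1Cre* (1.23, 1.06 and 0.98), and *Psmc5*, *Psmc4* and *Psmc1* in *Mct1f/fMb1Cre* (1.19, 1.02 and 1.01). Among the non-ATPase subunits, *Psmd8*, *Psmd1* and *Psmd14* rose most in *Mb1Cre* (1.45, 1.32 and 1.20), where *Psmd14* encodes the deubiquitinase that cuts ubiquitin chains off the substrate. In *Mct1f/fMb1Cre* these were *Psmd8*, *Psmd1* and *Psmd12* (1.55, 1.33 and 1.21). *Psmd8*, a subunit of the lid, had 91.68 and 95.04 FPKM in *Mb1Cre* and 81.11 and 83.72 FPKM in *Mct1f/fMb1Cre* on day 0, and 259.96 and 253.38 FPKM and 228.69, 258.88 and 243.13 FPKM on day 3. It was the most abundant 19S transcript in all 9 libraries. The smallest change was that of *Psmd4*, a ubiquitin receptor, with a log2 fold change of 0.57 in *Mb1Cre* (limma, adjusted p = 8.9e-07) and 0.59 in *Mct1f/fMb1Cre* (2.7e-07). Both calls were lost after scaling to a common total and after quantile normalization.

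The transcripts of the 14 standard 20S subunits differed in level by at most 3.48-fold within a library. Their median was 73.2 and 75.9 FPKM in *Mb1Cre* on day 0 and 184 and 174 FPKM on day 3, and 75.7 and 79.3 FPKM in *Mct1f/fMb1Cre* on day 0 and 177, 179 and 177 FPKM on day 3. *Psmb1* was the highest in each library, and the highest over the lowest was 3.09 to 3.48 on day 0 and 2.37 to 2.41 on day 3. Among the 17 subunits of the 19S particle the highest over the lowest was 3.16 to 3.94 on day 0 and 3.82 to 4.41 on day 3. The 17 subunits of the 19S particle had medians of 44.4 to 47.0 FPKM on day 0 and 89.3 to 91.8 FPKM on day 3, so that the 20S median was 1.56 to 1.71 times the 19S median on day 0 and 1.95 to 2.01 times on day 3. These ratios did not overlap between the days. They were not compared by a test.

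The 3 pairs of catalytic subunits did not change alike. At the chymotrypsin-like position, *Psmb5*, the constitutive subunit, had 49.40 and 56.93 FPKM in *Mb1Cre* and 48.00 and 54.24 FPKM in *Mct1f/fMb1Cre* on day 0. On day 3 it had 109.15 and 113.89 FPKM in *Mb1Cre* and 105.97, 117.76 and 109.04 FPKM in *Mct1f/fMb1Cre*. Both genotypes were higher on day 3 without overlap. Its inducible counterpart *Psmb8* had 161.22 and 170.70 FPKM in *Mb1Cre* and 149.37 and 163.59 FPKM in *Mct1f/fMb1Cre* on day 0, and 346.10 and 311.04 FPKM and 328.87, 350.44 and 345.23 FPKM on day 3. *Psmb8* was thus the higher of the pair in naïve cells too, and both genes rose. The log2 fold changes were 1.06 for *Psmb5* and 0.98 for *Psmb8* in *Mb1Cre* (limma, adjusted p = 1.7e-07 and 5.8e-08), and 1.10 and 1.12 in *Mct1f/fMb1Cre* (5e-08 and 7.6e-09).

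At the caspase-like position, *Psmb6* had 70.20 and 72.91 FPKM in *Mb1Cre* and 67.73 and 72.06 FPKM in *Mct1f/fMb1Cre* on day 0, and 143.93 and 130.59 FPKM and 134.35, 140.43 and 140.82 FPKM on day 3. Inducible *Psmb9* had 107.66 and 101.60 FPKM in *Mb1Cre* and 98.71 and 114.24 FPKM in *Mct1f/fMb1Cre* on day 0, and 328.10 and 314.10 FPKM and 290.62, 313.52 and 308.61 FPKM on day 3. Both rose without overlap, *Psmb9* the more. In *Mb1Cre*, *Psmb6* had a log2 fold change of 0.93 and *Psmb9* one of 1.61 (limma, adjusted p = 2.8e-08 and 1.5e-09), and in *Mct1f/fMb1Cre* these were 0.98 and 1.51 (7.5e-09 and 1.1e-09).

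At the trypsin-like position the order of the pair turned. *Psmb7* had 54.68 and 54.59 FPKM in *Mb1Cre* and 52.81 and 59.49 FPKM in *Mct1f/fMb1Cre* on day 0, and 167.62 and 166.12 FPKM and 159.64, 155.17 and 154.50 FPKM on day 3, a log2 fold change of 1.59 and 1.46 (limma, adjusted p = 2.5e-10 and 2.1e-10). Inducible *Psmb10* had 68.64 and 71.05 FPKM in *Mb1Cre* and 64.44 and 71.94 FPKM in *Mct1f/fMb1Cre* on day 0, and 77.59 and 70.69 FPKM and 78.68, 82.97 and 87.37 FPKM on day 3. Its days overlapped in *Mb1Cre* and not in *Mct1f/fMb1Cre*. *Psmb10* was the only catalytic subunit that was not called in either genotype. Its log2 fold change was 0.08 in *Mb1Cre* (limma, adjusted p = 0.26), with a sign that turned negative after scaling to a common total (-0.12) and after quantile normalization (-0.05), and 0.28 in *Mct1f/fMb1Cre* (adjusted p = 0.0013), under the limit of 0.5.

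**Figure D2:**
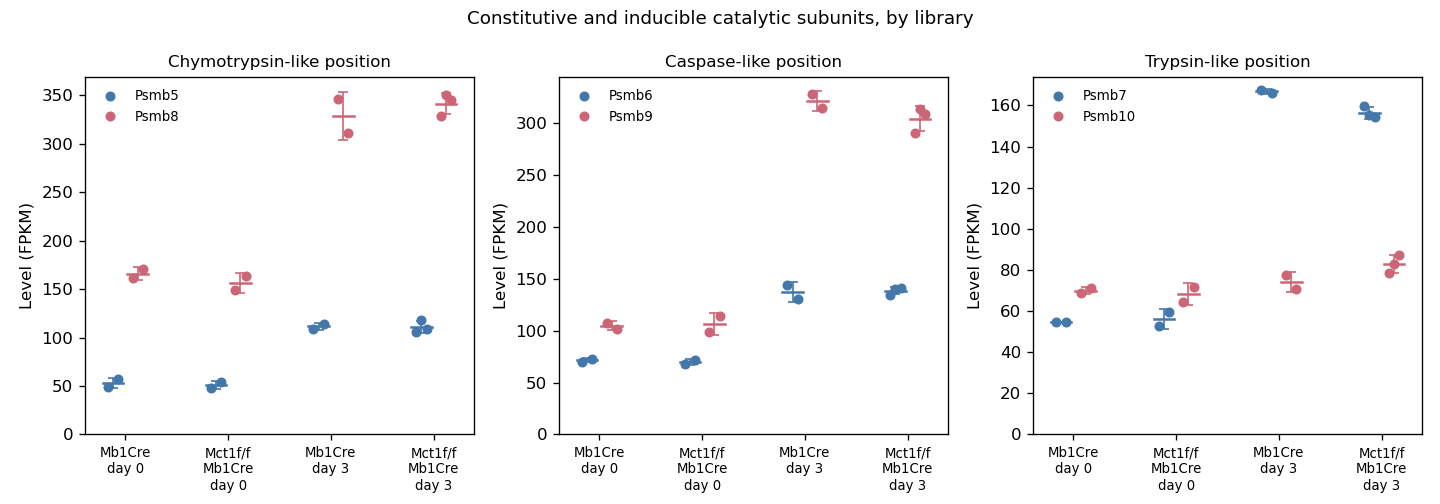
FPKM of each constitutive catalytic subunit (blue) and its inducible counterpart (red) in the 9 libraries, by group (points: libraries; horizontal lines and bars: mean ± SD; 2, 2, 2 and 3 libraries). Psmb8 and Psmb9 lie above Psmb5 and Psmb6 in every group, whereas Psmb7 passes Psmb10 on day 3.

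The ratio within a library compares the 2 subunits of a pair free of the scaling of that library, and the levels plotted by library show the same 3 patterns. *Psmb8* made up between 73.2% and 76.5% of its pair in all 9 libraries. The day 3 to day 0 difference in log2 ratio was -0.03, averaged over the genotypes (exact two-sided permutation test within genotypes, p = 0.683, adjusted over 3 pairs 0.683). The log2 ratios ranged from 1.57 to 1.69 on day 0 and from 1.44 to 1.66 on day 3, so a shift within that spread was not detectable. *Psmb9* made up 60.5% and 58.2% of its pair in *Mb1Cre* and 59.3% and 61.3% in *Mct1f/fMb1Cre* on day 0, and 69.5% and 70.6% and 68.4%, 69.1% and 68.7% on day 3. The ratio of *Psmb9* to *Psmb6* was 1.52-fold higher on day 3, with a log2 difference of 0.61 (exact permutation test, p = 0.0167, adjusted 0.025), and was higher in every day 3 library than in every day 0 library. *Psmb10* made up 55.7% and 56.6% of its pair in *Mb1Cre* and 55.0% and 54.7% in *Mct1f/fMb1Cre* on day 0, and 31.6% and 29.9% and 33.0%, 34.8% and 36.1% on day 3. The ratio of *Psmb10* to *Psmb7* was 0.393 times that of day 0, with a log2 difference of -1.35 (exact permutation test, p = 0.0167, adjusted 0.025), and was lower in every day 3 library. The p of 0.0167 is the smallest that the 60 arrangements allow. With the 2 shifts in opposite directions, the inducible subunits together took 65.0% to 65.9% of the summed level of the 6 genes on day 0 and 62.9% to 64.7% on day 3.

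The genes of these subunits lie apart in the genome, with the exception of *Psmb8* and *Psmb9*. In the GENCODE vM21 annotation of GRCm38, *Psmb8* lies at chr17:34197721-34201454 on the plus strand and *Psmb9* at chr17:34181987-34187764 on the minus strand, with *Tap1*, a subunit of the transporter that carries peptides to MHC class I, between them. Exons of *Tap1* cover 212 of the 3660 exonic bases of *Psmb9* on the other strand, and the strand setting of the counting is not given in the sources used here. *Psmb10* lies at chr8:105935735-105938444, *Psmb5* at chr14:54614119-54618022, *Psmb6* at chr11:70525367-70527858 and *Psmb7* at chr2:38588036-38644087. *Psmb11*, the thymic counterpart of *Psmb5*, is its neighbour on chromosome 14. It had at most 0.83 FPKM in any library, and *Psma8*, the testis alpha subunit, at most 0.29 FPKM with 0 in the 3 *Mct1f/fMb1Cre* libraries of day 3. These were the 2 members that did not pass the filter on low values.

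Promoters were searched on both strands for the letters of 4 motifs, because factors that bind such motifs are known to drive proteasome or immunoproteasome genes. RefSeq windows of GRCm38.p6, from 250 bases before to 50 bases after a start, were matched for 43 of the 51 members and for 27025 genes in all. TGACNNNGC, the core of the antioxidant response element, was found in 13.99% of all genes and in 6 of the 43 members (13.95%), among them *Psmb5* and *Psmb6*. TTCNNNGAA, the gamma-activated site bound by STAT factors, was found in 9.55% of all genes and in 3 members (6.98%), *Psmb8*, *Psmd2* and *Psmg1*. The core of the interferon-stimulated response element, TTTC followed after any 2 bases by another TTTC, was found in 3.99% of all genes and in 5 members (11.6%), *Psmb3*, *Psmd4*, *Psmd9*, *Psme1* and *Psmg4*. CCAAT was found in 41.1% of all genes and in 16 members (37.2%). No match overlaps another in the stretches shown. The stretches below are those of the 4 catalytic subunits with a match, read on the strand of the gene with the matched letters in capitals, at chr14:54618024-54618052 (minus strand), chr11:70525338-70525356 (plus), chr17:34198088-34198116 (plus) and chr17:34187331-34187348 (minus), where *Psmb9* holds CCAAT on the opposite strand.
Psmb5: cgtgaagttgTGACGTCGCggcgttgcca
Psmb6: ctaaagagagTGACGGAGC
Psmb8: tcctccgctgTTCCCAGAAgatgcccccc
Psmb9: gcagccgctgATTGGaaa
The match starts 47 bases before the RefSeq start of *Psmb5*, 9 bases before that of *Psmb6*, 97 bases before that of *Psmb8* and 8 bases before that of *Psmb9*. By the GENCODE coordinates above, the stretches of *Psmb8* and *Psmb9* lie inside the genes, so the annotations place these starts differently. A match describes the letters only, and binding was not measured here.

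Of the 4 activators, which cap the 20S particle in place of the 19S particle, 3 were called higher in both genotypes, and the inhibitor was called in neither. *Psme1*, which encodes the alpha subunit of the 11S activator PA28 and is induced by interferon gamma, had 218.44 and 246.99 FPKM in *Mb1Cre* and 236.36 and 246.45 FPKM in *Mct1f/fMb1Cre* on day 0, and 385.72 and 363.36 FPKM and 381.77, 378.59 and 376.79 FPKM on day 3. *Psme2*, its beta subunit, had 117.95 and 110.96 FPKM in *Mb1Cre* and 114.06 and 123.93 FPKM in *Mct1f/fMb1Cre* on day 0, and 302.89 and 284.45 FPKM and 279.69, 274.53 and 276.24 FPKM on day 3. Neither overlapped between the days. *Psme1* had log2 fold changes of 0.69 and 0.65 (limma, adjusted p = 6.1e-07 and 4.2e-07) and *Psme2* of 1.35 and 1.21 (8.5e-10 and 8.9e-10) in *Mb1Cre* and *Mct1f/fMb1Cre*. The call of *Psme1* was lost in both genotypes after scaling to a common total. *Psme1* was 1.85 to 2.23 times as high as *Psme2* on day 0 and 1.27 to 1.38 times on day 3. *Psme3*, the nuclear activator PA28 gamma, was called higher in both genotypes (0.79 and 0.93). *Psme4*, the activator PA200, had between 14.92 and 16.99 FPKM on day 0 and between 18.64 and 20.96 FPKM on day 3, and *Psmf1*, the inhibitor PI31, between 11.56 and 12.94 FPKM and between 15.33 and 17.69 FPKM. Both were higher without overlap but stayed under the limit, with log2 fold changes of 0.30 and 0.31 for *Psme4* and 0.34 and 0.47 for *Psmf1*. After median-of-ratios scaling both were called in both genotypes, and *Psmf1* was called in *Mct1f/fMb1Cre* also with a pseudocount of 0.1, after quantile normalization and without the day 3 library of replicate 1.

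*Psme2b* was the only member called lower, in both genotypes. It had 36.97 and 35.76 FPKM in *Mb1Cre* and 38.16 and 37.50 FPKM in *Mct1f/fMb1Cre* on day 0, and 8.65 and 11.11 FPKM and 8.31, 12.49 and 10.76 FPKM on day 3. All day 3 libraries lay below all day 0 libraries, and the log2 fold changes were -1.79 and -1.77 (limma, adjusted p = 4.1e-07 and 1.9e-07). *Psme2b* made up 23.2% to 25.1% of the summed level of *Psme2* and *Psme2b* on day 0 and 2.78% to 4.35% on day 3.

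**Figure D3:**
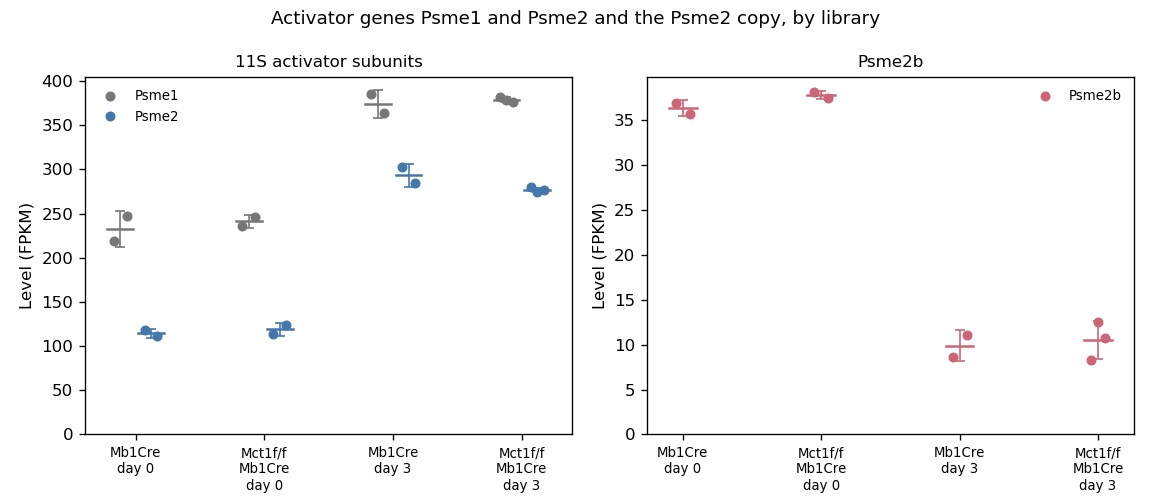
FPKM of Psme1 (grey) and Psme2 (blue), left, and of Psme2b (red), right, in the 9 libraries by group (points: libraries; horizontal lines and bars: mean ± SD; 2, 2, 2 and 3 libraries). Psme1 and Psme2 are higher on day 3 in both genotypes, while Psme2b drops from between 35.76 and 38.16 FPKM to between 8.31 and 12.49 FPKM.

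The opposite course of the 2 genes in the plot of activator genes has to be read with their sequences, since reads of one can be placed on the other. *Psme2* lies at chr14:55587441-55591113 with a coding sequence of 693 bases in 11 exons, and *Psme2b* at chr11:48945354-48946190 with 717 coding bases in 1 exon. Aligned over their coding sequences, they were identical at 680 of 693 bases (98.1%), with 24 further bases in gaps. The stretches shown are the 60 aligned coding bases with 3 differences, in capitals, at bases 460 to 519 of the *Psme2* and 484 to 543 of the *Psme2b* coding sequence (GENCODE vM21, GRCm38, both on the minus strand). They span chr14:55588049-55588246, across an intron, and chr11:48945576-48945635.
Psme2: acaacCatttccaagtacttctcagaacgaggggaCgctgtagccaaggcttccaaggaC
Psme2b: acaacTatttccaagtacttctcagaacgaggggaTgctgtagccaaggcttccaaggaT
Of the 788 windows of 50 bases in *Psme2b*, 463 (58.8%) were also found in *Psme2*, and how reads that match both were counted is not given in the sources used here. The values of both genes are uncertain for that reason. *Psme2b* also overlaps *9930111J21Rik1* on the same strand, and 41 of its 837 exonic bases lie in exons of that gene. *Gm12185* overlaps *Psme2b* on that strand too, with 0 of these bases in its exons. It had at most 2.11 FPKM and log2 fold changes of 0.52 in *Mb1Cre* and 0.40 in *Mct1f/fMb1Cre*. *9930111J21Rik1*, looked up after the fall of *Psme2b* was seen, had 53.52 and 43.16 FPKM in *Mb1Cre* and 48.29 and 49.05 FPKM in *Mct1f/fMb1Cre* on day 0 and 8.91 and 10.14 FPKM and 12.63, 12.75 and 12.98 FPKM on day 3. It was lower in every day 3 library, with log2 fold changes of -2.22 and -1.85, and its part in the *Psme2b* values was not tested.

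Of the 4 chaperones of the 20S particle, which pair up to hold the growing alpha ring, 3 were called higher in both genotypes. *Psmg1* had 11.35 and 10.00 FPKM in *Mb1Cre* and 11.12 and 12.41 FPKM in *Mct1f/fMb1Cre* on day 0, and 38.13 and 33.93 FPKM and 36.75, 34.74 and 36.78 FPKM on day 3. The days did not overlap, and its log2 fold changes of 1.67 and 1.54 (limma, adjusted p = 3.2e-09 and 2.7e-09) were the highest in *Mb1Cre* and the second highest in *Mct1f/fMb1Cre* among the subunits and factors tested. *Psmg2*, its partner, was called higher with 1.12 and 0.81, and *Psmg3* with 0.63 and 0.79. In *Mb1Cre* the call of *Psmg3* was lost after scaling to a common total and with a pseudocount of 5. *Psmg4*, the partner of *Psmg3*, had 0.36 and 0.39 and was not called, though after median-of-ratios scaling it was called in both genotypes. *Pomp*, the maturation protein of the beta ring, was called higher with 0.97 and 0.86 (limma, adjusted p = 1.6e-08 and 2e-08).

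Of the 3 chaperones of the 19S base, 1 was called higher in *Mb1Cre* and 0 in *Mct1f/fMb1Cre*, where 2 had an unadjusted p under 0.05 in limma. *Psmd5* had 23.41 and 22.80 FPKM in *Mb1Cre* on day 0 and 24.24 and 22.54 FPKM on day 3, which overlapped, with a log2 fold change of 0.02 that turned to -0.18 after scaling to a common total. In *Mct1f/fMb1Cre* it went from 22.26 and 22.73 FPKM to 27.92, 26.48 and 28.38 FPKM without overlap, a log2 fold change of 0.28 (limma, adjusted p = 0.00022), under the limit. *Psmd10*, known as gankyrin, had 0.29 in *Mb1Cre* and 0.07 in *Mct1f/fMb1Cre*, of which the latter turned to -0.10 after scaling to a common total, and neither was called. *Psmd9* had 6.42 and 7.22 FPKM in *Mb1Cre* on day 0 and 10.90 and 9.43 FPKM on day 3. Its log2 fold change of 0.51 (limma, adjusted p = 0.00012) was just past the limit in *Mb1Cre* and fell below it without the first library of either day, and that of 0.47 in *Mct1f/fMb1Cre* was just under it. The call in *Mb1Cre* was also lost after scaling to a common total and with a pseudocount of 5. Of the pseudocounts and scalings tried in *Mct1f/fMb1Cre*, *Psmd9* was called with a pseudocount of 0.1, after median-of-ratios scaling and after quantile normalization. Its log2 fold change there was also past 0.5 with the Y-expressing day 0 library alone. *Psmc3ip*, a meiotic recombination factor and no subunit, had 1.81 and 1.63, the largest increases of the 49 genes.

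Lists of genes around the proteasome were counted in the same way, to be read against the 24.8% of all genes called higher and 33% called lower in *Mb1Cre* and the 23.4% and 33.2% in *Mct1f/fMb1Cre*. Of 13 proteasome-associated factors, 7 were called higher and 0 lower in *Mb1Cre*, where 11 had an unadjusted p under 0.05 in limma, and 6 higher and 0 lower in *Mct1f/fMb1Cre*. *Txnl1*, a thioredoxin bound to the 19S particle, the deubiquitinase *Uchl5* and *Pomp* rose most in *Mb1Cre*, with log2 fold changes of 1.40, 1.21 and 0.97. The zinc finger genes *Zfand2a* and *Zfand5* had -0.49 and -0.43 and were not called. Of 17 genes that supply ubiquitin or carry its conjugates, 6 were called higher in each genotype and 1 and 0 lower. *Vcp*, the unfolding ATPase upstream of the proteasome, the ubiquitin fusion gene *Rps27a* and the shuttle receptor *Rad23b* rose most in *Mb1Cre* (1.02, 0.98 and 0.86), and *Ubqln2* was called lower there (-0.51). The medians were 0.56 for the associated factors and 0.35 for the ubiquitin genes in *Mb1Cre*.

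Of 15 known regulators of proteasome genes, 4 were called higher and 3 lower in *Mb1Cre*, and 2 higher and 4 lower in *Mct1f/fMb1Cre*, against the same shares of all genes. *Nfe2l1*, which encodes the factor that raises proteasome genes when proteasomes are inhibited, went in *Mb1Cre* from 33.33 and 32.08 FPKM to 48.74 and 47.92 FPKM without overlap, and was called higher there (0.55) but not in *Mct1f/fMb1Cre* (0.44). *Nfe2l2*, which acts through the antioxidant response element, went from 33.81 and 36.04 FPKM to 13.28 and 13.40 FPKM in *Mb1Cre* and fell by 1.32 on the log2 scale (limma, adjusted p = 5.5e-10), and by 1.42 in *Mct1f/fMb1Cre*. *Maff*, *Sel1l* and *Stat3* had the largest increases in *Mb1Cre* (0.84, 0.71 and 0.70), and *Foxo4*, *Nfe2l2* and *Mafk* the largest decreases (-1.46, -1.32 and -0.78).

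Of 16 genes that induce the immunoproteasome, act on the cytokine signals that do so or load MHC class I, 8 were called higher and 2 lower in *Mb1Cre*, and 7 higher and 3 lower in *Mct1f/fMb1Cre*, against the same shares. In *Mb1Cre*, *Tap1* went from 120.54 and 118.46 FPKM to 230.35 and 230.91 FPKM, and *Tap2*, the other transporter subunit beside *Psmb8*, from 69.89 and 69.46 FPKM to 130.96 and 128.71 FPKM. Neither overlapped, and the log2 fold changes were 0.94 and 0.89 (limma, adjusted p = 2.4e-08 and 2e-09). *Socs1*, a feedback inhibitor of cytokine signalling, *Pdia3* and *Calr*, chaperones of class I loading, rose most in *Mb1Cre* (3.33, 1.23 and 1.16). The receptor genes *Ifngr1* and *Ifnar1* fell by 2.39 and 0.71, whereas *Irf1*, which drives the immunoproteasome genes under interferon gamma, had -0.21 and was not called.

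Between the genotypes the proteasome transcripts differed little. On day 3, 0 of the 49 members were called between *Mct1f/fMb1Cre* and *Mb1Cre* by limma, where 2.42% of all tested genes were, and 9 members had an unadjusted p under 0.05. The 95% intervals of all 49 members lay within 0.5 of no change on the log2 scale, from a lower bound of -0.25 for *Psmg2* to an upper bound of 0.37 for *Psme2b*. The libraries of the 2 genotypes did not overlap in 17 members (34.7%), against 47.1% of all tested genes. In the alpha ring *Psma7* and *Psma2* had the highest log2 fold changes (0.09 and 0.01) and *Psma3*, *Psma6* and *Psma1* the lowest (-0.11, -0.09 and -0.06). Among the ATPases *Psmc4* and *Psmc1* had the highest (0.13 and 0.01) and *Psmc6*, *Psmc3* and *Psmc5* the lowest (-0.12, -0.11 and -0.02). Of the non-ATPases *Psmd3*, *Psmd13* and *Psmd6* had the highest (0.10, 0.04 and 0.04) and *Psmd14*, *Psmd8* and *Psmd2* the lowest (-0.12, -0.08 and -0.04). The catalytic subunits lay between -0.09 for *Psmb7* and 0.16 for *Psmb10* (limma, adjusted p = 0.24 and 0.11).

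**Figure D4:**
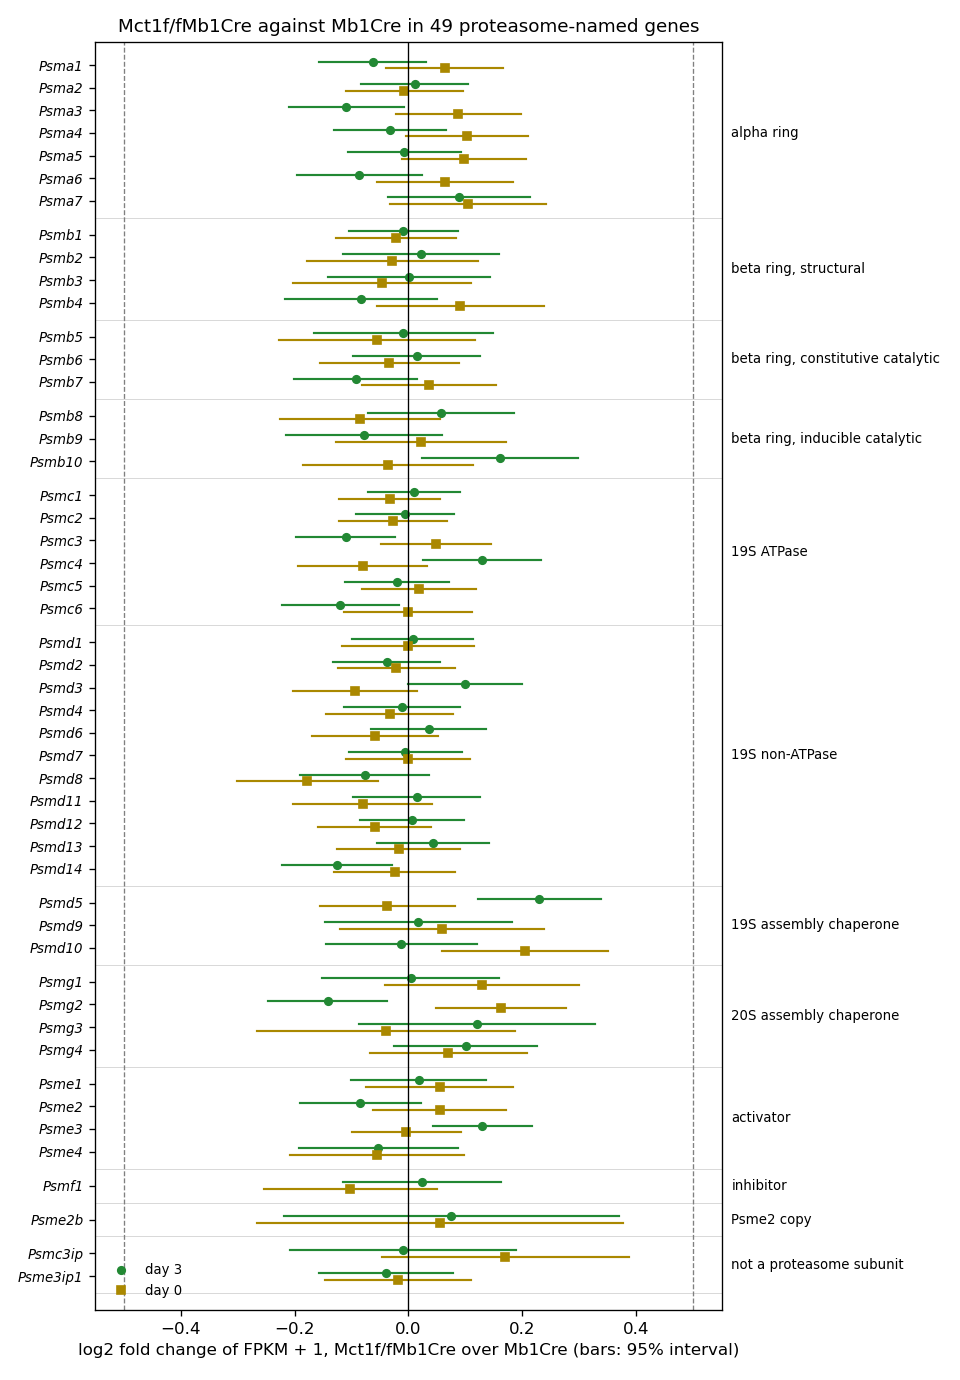
Log2 fold change of FPKM + 1, Mct1f/fMb1Cre over Mb1Cre, for the 49 tested members grouped by role (points: limma estimates on day 3, green, and day 0, ochre; bars: 95% intervals; dashed lines: 0.5 in size). Every interval lies between the dashed lines on both days, and the day 3 estimates run from -0.14 for Psmg2 to 0.23 for Psmd5.

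With no limit on the fold change, 2 members passed on day 3 as higher and 0 as lower, where 6.03% of all tested genes were higher and 9.21% lower. *Psmd5* was higher in *Mct1f/fMb1Cre* with a log2 fold change of 0.23 (limma, adjusted p = 0.01), and *Psme3* with 0.13 (adjusted p = 0.049). Over 21 alternatives the adjusted p lay between 0.0083 and 0.11 for *Psmd5* and between 0.023 and 0.31 for *Psme3*, both highest without *Mb1Cre* replicate 2 of day 3. *Psmd5* missed the threshold only there, and *Psme3* also under other settings. *Psme3* had 144.69 and 137.08 FPKM in *Mb1Cre* and 156.53, 150.31 and 155.79 FPKM in *Mct1f/fMb1Cre*, without overlap. The log2 ratio differed by 0.07 for *Psmb8* to *Psmb5*, by -0.09 for *Psmb9* to *Psmb6* and by 0.25 for *Psmb10* to *Psmb7* (exact two-sided permutation tests that double the smaller tail, p = 0.8, 0.2 and 0.2, of which 0.2 is the smallest value possible with these 5 libraries). The genotypes overlapped for the first pair. They did not for *Psmb9* to *Psmb6*, with 1.18 to 1.26 in *Mb1Cre* and 1.11 to 1.15 in *Mct1f/fMb1Cre*, nor for *Psmb10* to *Psmb7*, with -1.22 to -1.10 and -1.01 to -0.82. Of the 6 myeloid markers, *Lyz2* and *Adgre1* were called higher in *Mct1f/fMb1Cre* on day 3 (0.71 and 0.68) and the other 4 were not called, with *S100a9* the lowest at -0.82. Their part in these values was not tested.

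On day 0, 0 of the 49 members were called by limma between the libraries labelled *Mct1f/fMb1Cre* and *Mb1Cre*, where 0.277% of all tested genes were, and 3 members had an unadjusted p under 0.05. All 49 intervals lay within 0.5 of no change, between -0.30 for *Psmd8* and 0.39 for *Psmc3ip*. The libraries did not overlap in 15 members (30.6%), against 38.4% of all tested genes. The highest log2 fold change in the plot by genotype was 0.20 for *Psmd10* and the lowest -0.18 for *Psmd8*. *Psma7*, *Psma4* and *Psma5* had 0.10 each in the alpha ring and *Psma2* -0.01. *Psmc3* and *Psmc5* had 0.05 and 0.02 among the ATPases and *Psmc4*, *Psmc1* and *Psmc2* -0.08, -0.03 and -0.03, and after *Psmd8* the lowest non-ATPases were *Psmd3* and *Psmd11* (-0.09 and -0.08). Without the Y-expressing library 0 members were called as well, with the lone *Mct1f/fMb1Cre* library again assumed to vary like the other groups. Of the marker lists, *Hba-a1* and *Jchain* were called higher in the libraries labelled *Mct1f/fMb1Cre* on day 0 (0.64 and 0.97). The other 2 plasma cell markers were not called (-0.20 for *Sdc1* and -0.01 for *Prdm1*), nor were the other erythroid markers tested, *Hbb-bs* and *Hbb-bt* (0.39 and 0.27). The part of these markers in the values was not tested.

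The change with activation was compared between the genotypes by the interaction term. By limma 0 of the 49 members were called, where 3.23% of all tested genes were, and 8 had an unadjusted p under 0.05. The 49 intervals lay between -0.47 for *Psmc3ip* and 0.47 for *Psmg3*. In the alpha ring *Psma3*, *Psma6* and *Psma4* had the lowest values (-0.20, -0.15 and -0.13) and *Psma2* the highest (0.02). Among the ATPases these were *Psmc3*, *Psmc6* and *Psmc5* (-0.16, -0.12 and -0.04) and *Psmc4*, *Psmc1* and *Psmc2* (0.21, 0.04 and 0.02), and among the non-ATPases *Psmd14* and *Psmd2* (-0.10 and -0.02) and *Psmd3*, *Psmd8* and *Psmd11* (0.19, 0.10 and 0.09). The 3 inducible catalytic subunits had interactions of 0.14 for *Psmb8*, -0.10 for *Psmb9* and 0.20 for *Psmb10* (limma, adjusted p = 0.33, 0.54 and 0.21). With no limit on the fold change *Psmd5* and *Psmg2* passed, against 9.42% of all tested genes. Markers of other cells were called in the same term, with *Lyz2* and *Adgre1* at 0.57 and 0.51, *Hba-a1* at -0.91 and *Jchain* at -1.44. The 4 Y-linked genes had a median of -2.20 and 0 were called. Because day and the sex of the animals coincide in *Mb1Cre*, the interaction and the sex of the animals cannot be told apart. The part of the markers of other cells in the interaction was not tested.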

How the data were processed

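The authors deposited FPKM for 17596 genes in 9 libraries, rounded to 2 decimals and not pooled. The submitters' processing notes name Bowtie2 and GRCm38, the paper states that the sequencing institute assembled and analysed the data, and the quantifier, annotation and filters are not given in the sources used here. Groups and replicate numbers came from the sample titles.

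From these values, log2(FPKM + 1) was fitted with limma 3.58.1 in R 4.3.3, using a mean per group, 1 estimate of the spread for all 9 libraries and a trended empirical Bayes prior. P values were adjusted by Benjamini and Hochberg's method over the 10823 genes whose mean reached 1 FPKM. Limma replaced a test on counts, which FPKM do not allow. Pair ratios were compared by exact two-sided permutation tests in Python 3.11.15, with day labels permuted within genotype and p adjusted over 3 pairs, and figures were drawn with matplotlib 3.10.9. The tests of days counted absolute differences, whereas those of genotypes doubled the smaller tail, so their smallest p values differ at equal group sizes. The procedure was tested on simulated data.

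The named members were the catalytic subunits, activators, inhibitor and 20S chaperones, the 3 largest changes in each direction in role groups of at least 5, and members under the filter. The smallest changes, *Psmd5*, *Psmd9*, *Psmd10*, *Psme2b* and *Psmc3ip* were named after their values were seen. In the lists of related genes the 3 largest called changes in each direction were named, and *Adgre1*, *Hba-a1*, *Hbb-bs*, *Hbb-bt*, *Irf1*, *Jchain*, *Nfe2l1*, *Prdm1*, *S100a9*, *Sdc1*, *Tap1*, *Tap2*, *Zfand2a* and *Zfand5* after their values were seen. The members and lists were chosen with earlier results of these data known, and some listed genes are not reported here. Of the 51 members, 50 were matched by symbol in GENCODE vM21, where 19 overlap a gene on the other strand and 10 one on the same strand, so that some reads may be shared. Alternatives were pseudocounts of 0.1 and 5, other filters, 3 scalings, no trend, the compared groups alone, the replicate number as a block, other fold limits and each library left out.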

Additional observations from a re-analysis of the deposited data

Results flagged for a closer look

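*Psmd5*, a chaperone of the 19S base, and *Psmg2*, a chaperone of the 20S alpha ring, passed the adjusted p of the interaction term of limma, which compares the change with activation between the genotypes, but not the fold change limit, so neither was called. Both missed the adjusted p under some alternatives. *Psmd5* had a log2 interaction of 0.27 (limma, adjusted p = 0.045), with 24.24 and 22.54 FPKM in *Mb1Cre* and 27.92, 26.48 and 28.38 FPKM in *Mct1f/fMb1Cre* on day 3. Over 20 alternatives its interaction lay between 0.22 and 0.32, with adjusted p between 0.039 and 0.16. *Psmg2* had a log2 interaction of -0.30 (limma, adjusted p = 0.024), with 17.36 and 16.76 FPKM in *Mb1Cre* and 18.50 and 19.96 FPKM in *Mct1f/fMb1Cre* on day 0, and 38.05 and 38.40 FPKM and 33.89, 35.67 and 34.15 FPKM on day 3. Over 20 alternatives its interaction lay between -0.36 and -0.25, with adjusted p between 0.019 and 0.079. Among all tested genes 9.42% passed this adjusted p with no limit on the fold change, and 2 of the 49 members did, a smaller share. Of the markers of other cells, 2 myeloid ones were called higher in this term and 1 erythroid and 1 plasma cell marker lower, and their part in these values was not tested. The sex of the animals coincides with the day in *Mb1Cre*, so it cannot be told apart from the interactions of *Psmd5* and *Psmg2*.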

How the results depend on the processing

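The members called with activation ranged from 37 to 44 higher in *Mb1Cre* and from 38 to 44 higher in *Mct1f/fMb1Cre* over the pseudocounts, filters, scalings and spread estimates tried, with 1 lower throughout. Leaving out each library gave 40 to 41 higher in both. Only the fold limit moved these counts further, to 23 in *Mb1Cre* and 26 in *Mct1f/fMb1Cre* with a log2 limit of 1. With no limit they were 45 and 46 higher and 2 and 2 lower, 2 members were higher by genotype on day 3, and 1 was higher and 1 lower in the interaction. Called values that went under the limit after scaling to a common total were those of *Psmd4*, *Psmd9*, *Psme1* and *Psmg3* in *Mb1Cre* and of *Psmd4* and *Psme1* in *Mct1f/fMb1Cre*. Quantile normalization ended the call of *Psmd4* in both genotypes, and a pseudocount of 5 those of *Psmd9* and *Psmg3* in *Mb1Cre*. Fits with the replicate block gave 41 higher in *Mb1Cre* and 40 in *Mct1f/fMb1Cre* and 0 by genotype. Libraries with the same number deviated together by at most 0.0642 (correlation), so no pairing by number was seen. In groups of 2 libraries the 2 deviations mirror each other, so this correlation cannot show whether libraries shared an animal or a day. A replicate block with the numbers crossed in *Mb1Cre*, added after seeing the data, gave 41 higher and 1 lower. The ratio of *Psmb9* to *Psmb6* had a log2 difference of 0.68 in *Mb1Cre* alone (exact permutation test, p = 0.333) and 0.53 in *Mct1f/fMb1Cre* alone (p = 0.1), and that of *Psmb10* to *Psmb7* -1.51 and -1.18 with the same p values, the smallest these groups allow. Leaving out each library they ranged from 0.57 to 0.64 and from -1.38 to -1.32, with p of 0.0556, the smallest possible, without any 1 of the *Mct1f/fMb1Cre* libraries of day 3. The p values of these ratios count absolute differences and are not adjusted over the 3 pairs. The interaction uses all 4 groups, so a fit of the compared groups alone was not run for it. The depth of the libraries is unknown, so counting error cannot be told apart from the other spread between them.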
